A study of Mus musculus with 4 samples.

Results

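Of 78650 chromatin regions that carried an ATAC-seq peak in every library of the study, 849 stood higher in the rank order of both c-Maf-deficient libraries than in that of both control libraries. Peaks of the 4 libraries that overlapped by at least 1 bp on chromosomes 1 to 19 and X were merged into 171490 regions, and those with a peak in all 4 are called shared regions here. In each library a shared region was given its highest fold enrichment, the height of the peak summit over the local background of the same library. That fold was turned into a percentile among all shared regions of the library. The 849 regions were chosen by those percentiles: the lower KO percentile had to lie at least 20 points above the higher WT percentile. Their ranks are therefore a description of how they were selected, and no test was run on them.

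The libraries came from Omni-ATAC-seq, where the Tn5 transposase inserts sequencing adapters into accessible DNA. KO stands for Maf fl/fl Il7rCre fetuses and WT for Maf+/+ Il7rCre fetuses, with 2 libraries of each, so both genotypes carried the Cre driven from Il7r, a gene of lymphoid precursors. Each library was made from sorted γδ T cells (15 to 17 in units of 1000) that were CD24+ CD45RBlo and negative for CD4 and CD8, of pooled fetal thymi at embryonic day 17 to 18, of mice backcrossed for 5 generations to C57Bl/6. Whether the replicates of a genotype stem from different litters or pools is not stated, so their spread may be technical, and the floxed interval is not stated either. Read totals were not analysed here. The lists held 130935 and 120141 peaks in KO 1 and KO 2, against 102718 and 132179 in WT 1 and WT 2. The background pileup that the folds are measured against was 0.877 and 0.758 in KO and 1.57 and 1.38 in WT, without overlap of the genotypes. Its part in the ranks was not tested. Within 1 kb of a gene end, all 18 T cell identity genes had a peak in every library. Marker genes of other cells had one for 11 of 15 conventional αβ thymocyte genes in every library, 5 to 6 of 12 B cell genes, 5 to 7 of 14 myeloid genes, 3 to 5 of 12 erythroid genes and 7 to 9 of 16 genes of thymic epithelium and stroma. Among those without a peak in any library were Pax5 of B cells, Mpo and Elane of myeloid cells and Gata1 of erythroid cells. Among those with a peak in every library were Cd79a and Ebf1 of B cells, Spi1 and Cebpa of myeloid cells and Tal1 of erythroid cells.

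Accessible regions away from promoters often act as enhancers, which bind transcription factors and raise the output of genes that can lie far off. c-Maf is a large Maf protein of the basic leucine zipper family and binds Maf recognition elements, which extend an AP-1 or CRE core by a flanking TGC. In γδ T cells it is known for its part in the program that leads to IL-17 production. In immature thymocytes several programs are still accessible side by side, and a higher rank of a region in one genotype says that its peak was taller relative to the other shared peaks of the same library. In these bulk libraries, more cells with the region open and a more open region in each cell cannot be told apart.

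Only 20 of the 849 regions (2.36%) overlapped a RefSeq promoter window, the stretch from 250 bases before to 50 after an annotated start, against 22 of the 993 regions ranked higher in WT (2.22%) and 10375 of all shared regions (13.2%). Windows from these regions are shown because they are the only places where sequence could be set beside these regions; no genome sequence was used here. The windows are from RefSeq on GRCm38.p6, read 5′ to 3′ on the gene's strand, and capitals mark the bases that lie inside the accessible region. The first 5 belong to the 6 promoter regions with the largest percentile gap. The other one, of Gm33934, held 3 bases of its window and is not shown. Hmox2 encodes the constitutive heme oxygenase (chr16:4756696-4756995, plus strand). Car7 encodes a cytosolic carbonic anhydrase (chr8:104541059-104541358, plus strand). Gm46758 (chr2:116906893-116907192, minus strand), Gm51771 (chr10:70110176-70110475, minus strand) and Gm33148 (chr7:142610569-142610868, plus strand) are predicted genes. Ifit3, an interferon-induced gene (chr19:34583279-34583578, plus strand), and B3galt6, a galactosyltransferase of the proteoglycan linker (chr4:155992629-155992928, minus strand), were added after their values were seen.
Gm46758: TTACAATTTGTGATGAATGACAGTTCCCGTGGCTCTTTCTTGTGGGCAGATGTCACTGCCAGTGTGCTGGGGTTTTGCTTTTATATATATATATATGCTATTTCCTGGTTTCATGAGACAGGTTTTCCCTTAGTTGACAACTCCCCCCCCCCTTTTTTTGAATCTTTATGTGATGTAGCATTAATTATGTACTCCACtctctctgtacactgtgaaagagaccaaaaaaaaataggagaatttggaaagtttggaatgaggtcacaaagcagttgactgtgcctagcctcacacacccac
Gm51771: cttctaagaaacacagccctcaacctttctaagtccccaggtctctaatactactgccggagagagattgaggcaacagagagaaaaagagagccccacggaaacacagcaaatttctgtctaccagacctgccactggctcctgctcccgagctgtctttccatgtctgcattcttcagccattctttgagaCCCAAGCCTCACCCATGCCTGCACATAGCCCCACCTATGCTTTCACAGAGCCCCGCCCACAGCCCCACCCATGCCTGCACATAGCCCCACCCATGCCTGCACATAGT
Hmox2: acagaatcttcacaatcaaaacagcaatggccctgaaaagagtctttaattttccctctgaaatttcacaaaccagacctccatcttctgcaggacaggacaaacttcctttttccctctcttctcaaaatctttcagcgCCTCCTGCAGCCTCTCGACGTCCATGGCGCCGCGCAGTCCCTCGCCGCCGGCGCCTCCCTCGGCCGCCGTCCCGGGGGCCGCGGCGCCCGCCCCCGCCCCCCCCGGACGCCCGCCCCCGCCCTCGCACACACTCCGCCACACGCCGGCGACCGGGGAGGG
Car7: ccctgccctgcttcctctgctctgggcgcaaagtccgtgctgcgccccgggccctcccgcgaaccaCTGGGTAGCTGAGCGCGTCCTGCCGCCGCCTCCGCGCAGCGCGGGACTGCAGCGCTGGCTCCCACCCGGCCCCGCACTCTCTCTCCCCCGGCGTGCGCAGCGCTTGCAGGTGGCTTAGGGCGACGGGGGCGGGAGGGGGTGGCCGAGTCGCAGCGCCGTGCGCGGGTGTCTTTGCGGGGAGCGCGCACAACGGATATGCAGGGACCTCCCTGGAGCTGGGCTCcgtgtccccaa
Gm33148: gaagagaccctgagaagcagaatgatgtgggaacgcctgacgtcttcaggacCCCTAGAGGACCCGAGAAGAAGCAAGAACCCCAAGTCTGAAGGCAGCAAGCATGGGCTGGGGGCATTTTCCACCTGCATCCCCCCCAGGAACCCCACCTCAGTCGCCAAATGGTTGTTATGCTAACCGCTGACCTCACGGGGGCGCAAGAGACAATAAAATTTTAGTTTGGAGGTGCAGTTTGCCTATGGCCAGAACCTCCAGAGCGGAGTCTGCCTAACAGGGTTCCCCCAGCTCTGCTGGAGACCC
Ifit3: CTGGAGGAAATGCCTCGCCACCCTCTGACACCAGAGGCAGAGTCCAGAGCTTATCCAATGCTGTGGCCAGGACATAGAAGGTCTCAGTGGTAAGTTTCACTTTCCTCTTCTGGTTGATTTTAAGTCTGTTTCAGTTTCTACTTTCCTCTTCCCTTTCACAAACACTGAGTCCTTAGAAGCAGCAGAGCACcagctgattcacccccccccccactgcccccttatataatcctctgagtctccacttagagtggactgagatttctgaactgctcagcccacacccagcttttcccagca
B3galt6: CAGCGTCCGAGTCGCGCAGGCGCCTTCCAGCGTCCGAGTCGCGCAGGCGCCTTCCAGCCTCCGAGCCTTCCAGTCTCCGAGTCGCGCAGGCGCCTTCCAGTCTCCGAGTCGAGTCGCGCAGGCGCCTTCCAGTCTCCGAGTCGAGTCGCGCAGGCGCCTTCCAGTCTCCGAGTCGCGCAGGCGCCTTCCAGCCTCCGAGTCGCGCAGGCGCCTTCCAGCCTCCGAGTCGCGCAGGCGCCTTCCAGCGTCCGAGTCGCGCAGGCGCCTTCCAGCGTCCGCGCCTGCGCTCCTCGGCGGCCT

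Hmox2 and Car7 had the GC-rich windows usual for mammalian promoters, with 64.0% and 74.0% G or C. The SP/KLF word CCCGCCC, searched on both strands, stood 4 times in the Hmox2 window, each time inside the accessible part. The same word stood once inside the accessible part at Car7 and once at Gm51771. B3galt6 lay wholly inside its region and held a run of closely similar repeats with 72.7% G or C. Over the 32 promoter windows that the 20 regions overlapped, TGCTGA, a word that joins the flank of the Maf element to part of its core, was in 1 window (3.12%) and in 19.5% of all 32851 windows. The AP-1 word TGANTCA was in 1 (3.12%) against 7.81% of all windows. The E box CAGCTG was in 9 (28.1%) against 16.3%, CCCGCCC in 11 (34.4%) against 25.6%, and the CTCF core AGGGGGC in 5 (15.6%) against 10.6%. The ETS word CCGGAAG was in 2 (6.25%) against 8.86%, the RUNX word TGTGGTT in 1 (3.12%) against 5.27%, the GATA word AGATAA in 3 (9.38%) against 11.2%, and the TCF1/LEF1 word ATCAAAG in 0 against 3.73%. These shares count words anywhere in a window, also in bases outside the accessible region. At Ifit3, for example, the AP-1, E box and CTCF words all lay outside it. Windows of neighbouring transcripts overlap and share bases, so these are counts of letters and not of bound sites.

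The regions ranked higher in KO were middling peaks in KO and small ones in WT. Their median fold enrichment was 10.7 in KO 1 and 12.1 in KO 2, against 4.67 in WT 1 and 6.53 in WT 2. For all shared regions the medians were 9.75 and 11.2 in the KO libraries and 7.34 and 10.5 in the WT libraries. The KO folds of these regions thus lay near the middle of all shared regions, and their WT folds lay below it. Their median percentile was 55.7 and 54.7 in KO 1 and KO 2, against 19.6 and 22.3 in WT 1 and WT 2. The median −log10 q of the same peaks was 18.9 and 22.1 in the KO libraries and 4.56 and 9.29 in the WT libraries. In 849 of 849 regions both KO values of −log10 q exceeded both WT values, as in 13.1% of all shared regions, a measure of the same summits and so no separate support. Both KO folds reached at least 2 times the higher WT fold in 87 of the 849 regions (10.2%), and in 94 of all shared regions (0.120%).

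**Figure D1:**
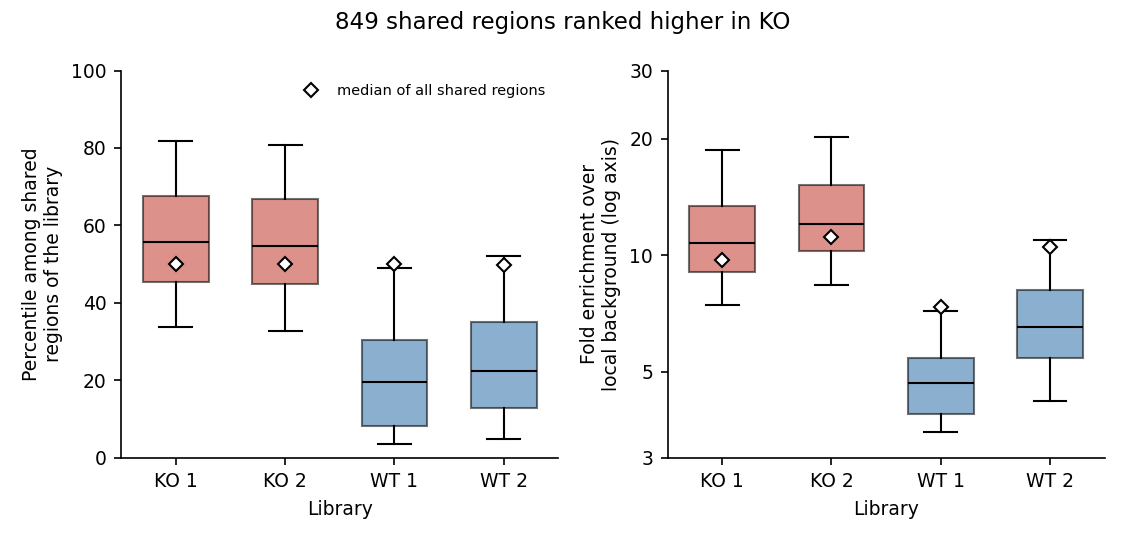
Percentile among shared regions (left) and fold enrichment on a log axis (right) of the 849 regions ranked higher in KO, by library. Boxes span the quartiles with the median as a line, whiskers the 5th to 95th percentiles, and diamonds give the median of all shared regions: the regions' medians of 55.7 and 54.7 in the KO libraries lie a little above the diamonds, and those of 19.6 and 22.3 in the WT libraries well below.

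The 2 libraries of a genotype ranked these regions alike. The median gap between KO 1 and KO 2 was 4.73 points, and between WT 1 and WT 2 it was 6.06 points, against 6.51 and 8.22 points over all shared regions; small gaps within a genotype are favoured by the rule itself. Among the 849 regions the lower KO percentile was at least 75 in 70 (8.24%), from 50 to 75 in 396 (46.6%) and under 50 in 383 (45.1%). Over all shared regions these classes held 21.5%, 22.6% and 55.9%. The higher WT percentile was under 25 in 405 regions (47.7%), against 16.7% of all shared regions, and both shares follow from the rule. At such low ranks 1 read can move the percentile by several points. In WT 1, 1 read was worth 0.389 in fold, and folds of 3.89 and 4.28, 1 read apart, correspond to percentiles of 8.19 and 13.8. Other folds lie between them, such as 3.99 at percentile 10.02. In KO 1, where 1 read was worth 0.533, folds of 10.1 and 10.7, also 1 read apart, correspond to 52.1 and 55.04.

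The gap between the genotypes, the lower KO percentile minus the higher WT percentile, had a median of 24.2 points over the 849 regions and reached 49.8 points. The rule took 1.08% of shared regions, and the same rule with the genotypes exchanged took 993 (1.26%). Without a minimum gap, both KO percentiles stood above both WT percentiles in 14628 shared regions (18.6%) and both WT above both KO in 14224 (18.1%). The directions thus gave like numbers at small gaps and unlike ones at large gaps. A gap of at least 30 points was found in 150 regions ranked higher in KO and in 370 ranked higher in WT, and one of at least 40 points in 20 and 157. A gap of at least 50 points was found in 0 and 55 regions, and the largest gap in favour of WT was 84.5 points. Just inside the threshold were a region at chr9:115481256-115481496, with a gap of 20.02 points, and one 13.4 kb from Vtcn1, with 20.01 points. Just outside were a region 2.89 kb from Cxcl9 and one at chr8:89918129-89918377, both with 19.998 points.

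**Figure D2:**
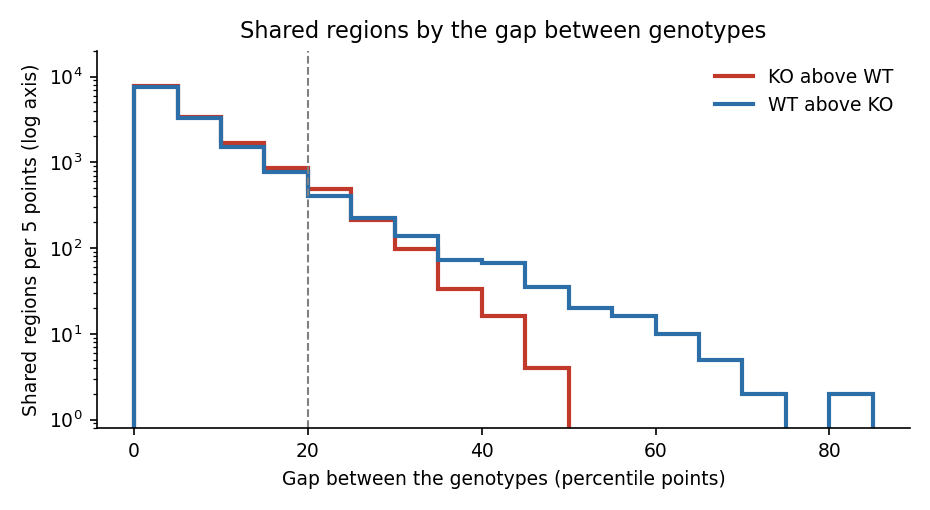
Number of shared regions (log axis) by the gap between genotypes in bins of 5 percentile points, for regions with KO above WT in red and WT above KO in blue. The dashed line marks the 20 points of the rule: the lines run together at small gaps, while no region reaches 50 points in favour of KO and 55 regions do in favour of WT.

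The largest gaps belonged to regions inside large genes or in the intervals between genes. Inside Pde7b, which encodes a cyclic AMP phosphodiesterase, the region chr10:20616457-20616660 had a fold of 12.8 and 14.2 in KO 1 and KO 2, against 4.28 and 4.63 in WT 1 and WT 2. Inside Mpp6, a membrane scaffold gene, chr6:50160003-50160215 had 13.9 and 14.2 in KO, against 4.28 and 5.47 in WT. Both showed a gap of 49.8 points, and in both every KO fold was more than double every WT fold. Kcnq5, a voltage-gated potassium channel gene, held chr1:21923896-21924065, with 14.4 and 16.5 in KO against 5.06 and 6.73 in WT. Clip4, which encodes a CAP-Gly domain protein, held chr17:71827092-71827370, with 14.4 and 18.2 in KO against 5.06 and 5.47 in WT. A region at chr7:136231270-136231604, 515 kb from the nearest gene, had 13.7 and 16.8 in KO against 4.67 and 6.73 in WT. None of these places lies within 1 kb of a gene end.

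Among the 12 largest gaps was a region of Pik3cd, which encodes p110δ, the leukocyte catalytic subunit of phosphoinositide 3-kinase. Its region, chr4:149663884-149664403, lay inside the gene 14.7 kb from the nearer end. The fold there was 13.9 and 13.2 in KO 1 and KO 2, against 4.41 and 4.89 in WT 1 and WT 2, with a gap of 43.7 points. A region 1.49 kb from Serpinc1, the antithrombin gene, had 10.1 and 14.2 in KO against 3.89 and 4.63 in WT. Regions near Man1a2, a Golgi mannosidase gene, Fpr-rs7, a formyl peptide receptor relative, and Ppp1r3b, a glycogen-targeting subunit of protein phosphatase 1, lay 10.9, 15.6 and 73.4 kb away. Regions inside Nbas, a gene of Golgi-to-ER transport, and Vwa3b completed the 12. Their gaps ran from 42.9 to 43.9 points. At each of the 12 regions both KO folds exceeded 10, and the WT folds stayed between 3.501 and 7.99.

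Few of the regions were tall peaks in KO. Among the 70 with a lower KO percentile of at least 75, the largest gap after that of Vwa3b was at Mier3, a gene of the MIER family of chromatin regulators, where chr13:111711347-111711623 had a fold of 24.0 and 24.2 in KO 1 and KO 2, against 7.001 and 9.25 in WT 1 and WT 2. The tallest of the 10 named by this rule in KO 1 was chr8:116102467-116102761, 396 kb from Maf and with no gene within 100 kb. It had 27.6 and 25.2 in KO, against 3.89 and 10.9 in WT, so the WT libraries differed from each other at this place, at percentiles 8.19 and 52.1. Rdx, which encodes radixin, a linker of membrane and actin, held a region with 17.6 and 22.1 in KO against 6.61 and 9.67 in WT. Rpgrip1l, a gene of the ciliary transition zone, held one with 20.7 and 21.9 against 7.39 and 9.67. Rad18, a ubiquitin ligase of DNA damage tolerance, held one with 18.1 and 24.5 in KO against 5.06 and 10.1 in WT. Crygf, Ear1, Ypel5 and 5430403G16Rik were the nearest genes of the other regions, at 96.3, 13.98, 22.3 and 29.5 kb.

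Position was not used to choose the regions, and the 849 lay away from gene ends. Within 1 kb of either end of a protein-coding gene or constant segment were 43 of them (5.06%, exact 95% interval 3.69% to 6.76%), against 64 of the 993 regions ranked higher in WT (6.45%, 4.999% to 8.16%) and 16208 of all shared regions (20.6%). The intervals cover counting error only. The median distance to the nearest gene end was 23.5 kb, against 20.1 kb for regions ranked higher in WT and 11.1 kb for all shared regions. Inside a gene body lay 446 (52.5%, 49.1% to 55.9%), against 58.1% and 62.8%. More than 100 kb from any gene lay 87 (10.2%, 8.29% to 12.5%), against 7.05% and 5.38%. Regions ranked higher in WT thus shared the distance from gene ends, so a low gene-end share went with a large gap in either direction.

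The low gene-end share was also seen within bands of rank. When regions were grouped by their mean percentile over the 4 libraries, the gene-end share of the 849 regions was below that of all shared regions in each of 7 bands. From the 20th to the 30th percentile it was 8 of 192 (4.17%) against 13.5%, and from the 30th to the 40th 18 of 238 (7.56%) against 13.1%. From the 40th to the 50th it was 10 of 181 (5.52%) against 14.1%, and from the 50th to the 60th 4 of 123 (3.25%) against 15.6%. These bands were chosen after the values were seen.

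**Figure D3:**
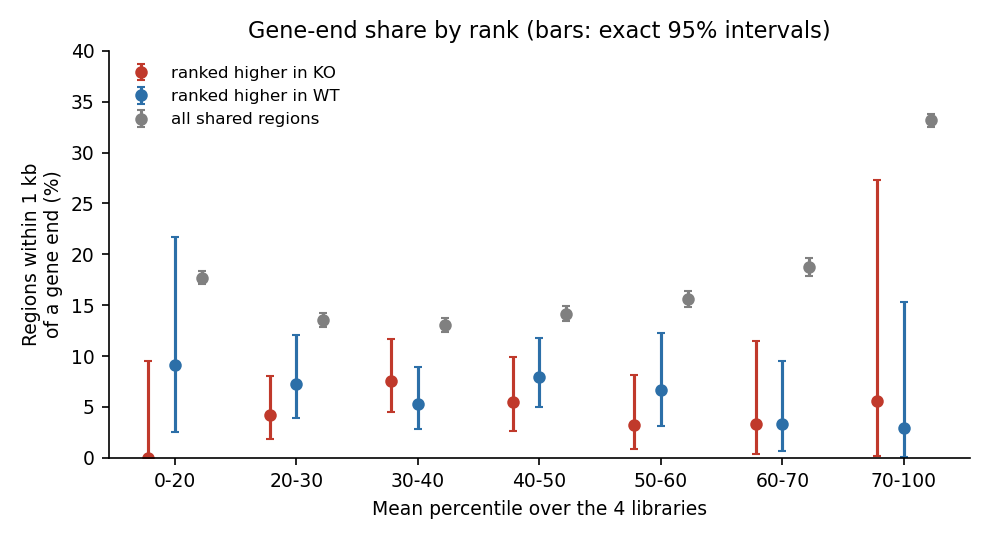
Percentage of regions within 1 kb of a gene end by mean percentile over the 4 libraries, with exact 95% intervals for counting error. Red points are the 849 regions ranked higher in KO, blue points the 993 ranked higher in WT, and grey points all shared regions: red and blue lie below grey in every band, for example at 4.17% against 13.5% from the 20th to the 30th percentile.

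The regions ranked higher in KO were also more isolated than shared regions at large. The median number of other shared regions within 50 kb was 5, against 7 for regions ranked higher in WT and 8 for all shared regions. None was found within 50 kb of 79 of the 849 (9.31%, exact 95% interval 7.44% to 11.5%), against 2.42% of regions ranked higher in WT and 3.096% of all. In this measure the 2 directions differed from each other and not only from the whole. The median width of the merged region was 243 bp, against 290 bp for regions ranked higher in WT and 274 bp for all shared regions. The tallest peak had a median width of 204 and 213 bp in KO 1 and KO 2, against 123 and 179 bp in WT 1 and WT 2. The 4 tallest summits lay within 150 bp of each other in 819 of the 849 regions (96.5%), close to the 95.3% of all shared regions. Each library gave a single peak in 810 (95.4%), against 90.9% of all. A region called only in both KO libraries lay within 10 kb of 63 (7.42%), against 9.49% of all shared regions, and one called only in both WT libraries within 10 kb of 49 (5.77%), against 7.77%.

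At gene ends, the 43 regions were spread over genes of unlike kinds. The highest rank of all 849 belonged to the region over the B3galt6 promoter shown above, chr4:155992306-155993453, with a fold of 48.9 and 40.1 in KO 1 and KO 2, against 11.8 and 16.9 in WT 1 and WT 2. Its percentiles were 99.9 and 99.0 in KO, against 74.6 and 75.2 in WT, so it ranked well above the middle in every library. The Ifit3 region, chr19:34583241-34583468, had 12.6 and 14.5 in KO against 5.83 and 7.57 in WT. A region 0.236 kb from Wnt8a, which encodes a Wnt ligand, had 10.1 and 16.0 in KO against 3.70 and 5.04 in WT, the largest gap at a gene end (41.4 points). Other gene ends were those of Alas1, the first enzyme of heme synthesis, with 13.5 and 18.9 against 3.601 and 9.90, and Tlr7, a sensor of single-stranded RNA, with 10.1 and 14.2 against 4.28 and 7.57. Slc28a2 and Slc28a2b, neighbouring nucleoside transporter genes of one family, each had one, with 24.1 and 17.3 against 6.61 and 10.9 at the first and 18.9 and 17.5 against 6.99 and 6.31 at the second. Reads of such related copies, and of the repeats at B3galt6, may not be placed with certainty. B3galt6 and the gene ends after it in this paragraph were chosen after their values were seen. The Hmox2 promoter region, chr16:4756836-4757246, is not among the 43, as its window belongs to a start inside the gene, 8.21 kb from the nearest gene end. It had 12.1 and 16.5 in KO against 4.28 and 7.15 in WT.

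Most genes with such a region had only 1. Of the 849, 762 had a gene body within 100 kb, and these fell to 720 genes, of which 681 had 1 region, 36 had 2 and 3 had 3. The 3 genes were Rptor, which encodes the mTORC1 subunit raptor, Smyd3, a lysine methyltransferase gene, and Wwox, a large gene beside Maf. At Rptor, 3 of 26 shared regions were ranked higher in KO by the rule and 0 higher in WT. The fold at its 3 regions was 8.53 to 10.9 in KO 1 and 11.1 to 14.4 in KO 2, against 3.89 to 4.28 in WT 1 and 4.63 to 7.65 in WT 2. At Smyd3, it was 3 of 26 with 0 the other way, and at Wwox 3 of 64 with 1 the other way. Clip4 had 2 of its 3 shared regions among the 849, and Glis3, a zinc finger factor gene, 2 of 15. These genes were picked for their number of regions, so their shares lie above the 1.08% of all shared regions by choice. Of neighbouring regions among the 849, 6 pairs lay within 10 kb and 27 within 50 kb. The same count was not made for all shared regions. The closest pair was inside Zfr, 0.139 kb apart, and the next inside Slx4, a scaffold gene of DNA repair nucleases, 5.98 kb apart. At Slx4 the taller region of the pair had 26.2 and 30.8 in KO against 9.92 and 11.1 in WT.

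By chromosome, the share of shared regions that met the rule was 1.59% on chromosome 1 (83 of 5205, exact 95% interval 1.27% to 1.97%), the highest. It was 0.697% on chromosome 9 (32 of 4593, 0.477% to 0.982%), the lowest. The others lay between, with 0.748% on chromosome 11, 0.787% on chromosome 19 and 1.09% on X. On chromosome 1 the share ranked higher in WT was 1.58%, so that chromosome held more of both directions than the genome-wide 1.08% and 1.26%.

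The flank of Maf itself, the targeted gene on chromosome 8 (chr8:115703253-115706894), held a larger share of such regions than the genome as a whole. Within 1 Mb of Maf, 7 of 108 shared regions met the rule (6.48%, exact 95% interval 2.65% to 12.9%), against 842 of 78542 elsewhere (1.07%). Both KO percentiles stood above both WT percentiles in 31 of the 108 (28.7%), against the 18.6% of the genome, and the reverse held in 20 (18.5%). The 7 lay on both sides of the gene, at 684, 585, 559, 213 and 77.9 kb on the side of lower coordinates and 64.2 and 396 kb on the other. The nearest, chr8:115771099-115771346, had a fold of 15.3 and 16.8 in KO 1 and KO 2, against 5.83 and 9.25 in WT 1 and WT 2. On the other side, chr8:115625125-115625403 had 10.6 and 10.9 in KO, against 5.06 and 6.16 in WT. The region 213 kb away had 12.3 and 16.2 in KO, against 6.22 and 8.83 in WT, and the 3 inside Wwox had 7.46 to 16.6 in KO 1 and 8.53 to 17.9 in KO 2, against 3.11 to 7.39 in WT 1 and 4.20 to 8.48 in WT 2.

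The share was lower in wider windows, with 9 of 206 shared regions within 2 Mb (4.37%), 11 of 503 within 5 Mb (2.19%) and 24 of 1470 within 20 Mb (1.63%). Over the 21647 genes of the table, 3 had at least 7 such regions within 1 Mb, namely Wwox with 8, Maf with 7 and Smyd3 with 7, and the windows of Wwox and Maf overlap. This window was chosen with earlier results of these data known. Regions ranked higher in WT numbered 2 within 1 Mb, a region inside Wwox and one 0.828 kb from Maf. At the one beside Maf the summits of the libraries did not coincide, as the 4 tallest span 760 bp. Loss of c-Maf protein and the altered allele itself cannot be told apart here, since both KO libraries carry both. Whether DNA of another strain remains around the allele after 5 generations of backcrossing was not tested.

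**Figure D4:**
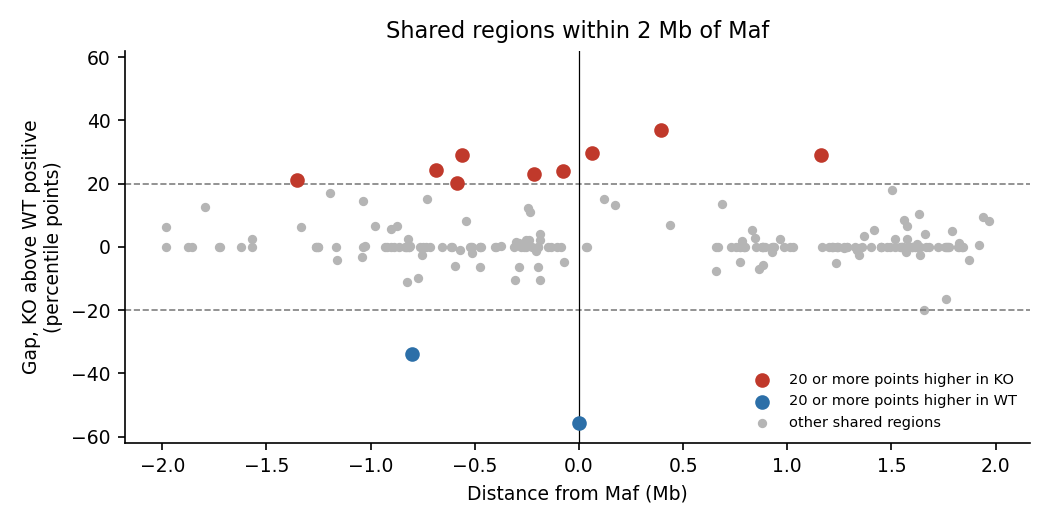
Gap between genotypes in percentile points (positive for KO above WT, negative for WT above KO, 0 where neither genotype stood above the other) of shared regions against their distance from Maf in Mb. Red points are regions at least 20 points higher in KO, of which 7 lie within 1 Mb on both sides of the gene, and blue points the 2 at least 20 points higher in WT.

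At the genes of the fixed lists the regions were few. The 13 lists held genes of cell programs, markers of the sorted cells, markers of other cells and housekeeping genes. They gathered 234 genes of the table with 1969 shared regions. Of these regions, 9 (0.457%) were ranked higher in KO and 27 ranked higher in WT. Over all shared regions 1.08% were ranked higher in KO and 1.26% higher in WT, the shares to read these against. The 9 lay at 8 genes, 2 of them at Maf as given above. The type 17 program had 3 of 320 (0.938%), at Maf and Sox5, against 7 ranked higher in WT (2.19%). Among the 7 were regions at Il17a and Il17f, the IL-17 cytokine genes. Such a WT share was not particular to this list. It was 2.63% at T cell identity genes (6 of 228) and 2.06% at T cell receptor response genes (5 of 243). It was lower at type 1 genes (2 of 201, 0.995%) and housekeeping genes (0 of 70). The median gap over the type 17 list was −10.6 points, against −7.91 over all shared regions and −11.1 over housekeeping genes. With the genotypes exchanged these medians were −8.89, −7.69 and −4.51 points. A negative median alone thus does not place WT above KO, as the gap is negative wherever the genotypes overlap. Over the 13 lists the median gap ran from −12.4 to −1.54 points. The type 1 program of interferon-γ producers had 0 of 201, the T cell receptor response 1 of 243, the immature thymocyte and TCF1 module 1 of 409, and published c-Maf target genes 2 of 197. Genes of MAF, AP-1 and CNC factors had 3 of 188, the targeted gene included.

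Each of the 9 stood apart from the gene's ends. Sox5, a factor of the type 17 γδ program, held chr6:144332136-144332348 inside the gene, 450 kb from its nearer end, with a fold of 8.53 and 7.96 in KO 1 and KO 2, against 3.89 and 4.63 in WT 1 and WT 2. A region 27.7 kb from Il21, which encodes a cytokine that c-Maf promotes in helper T cells, had 9.59 and 8.61 in KO against 3.501 and 5.29 in WT. Tox, a nuclear factor needed in T cell development, had 9.06 and 11.4 in KO against 3.89 and 6.73 in WT at a region inside the gene. Tox also had a region ranked higher in WT, 63.7 kb from the gene, with 5.33 and 3.98 in KO against 6.22 and 8.83 in WT. Dusp5, a phosphatase induced by ERK signals, held a region with 7.61 and 8.07 in KO against 3.99 and 4.26 in WT. In all 9 both KO folds exceeded both WT folds, as in each of the 849 and in 32.8% of all shared regions. The rule compared the ranks of these folds within each library, so this order is no separate support.

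Ptprc and Trdc, 2 genes that mark the sorted cells, gave the remaining pair. Ptprc encodes CD45, the phosphatase whose RB isoform was used in the sort. The region, 28.3 kb from the gene, had 14.4 and 16.5 in KO 1 and KO 2, against 6.22 and 9.67 in WT 1 and WT 2. Trdc is the constant segment of the δ chain, and a region 69.6 kb away, with variable and joining segments left out of the gene set, had 10.5 and 11.6 in KO against 5.45 and 7.30 in WT. Gene-end regions of these loci varied in height. The end of Ptprc had a fold of 12.4 and 13.4 in KO against 10.1 and 14.1 in WT. That of Dusp5 had 21.2 and 20.3 against 19.4 and 20.02, and that of Tox 18.9 and 19.99 against 19.3 and 17.6. By fold the genotypes overlapped at Ptprc and Tox. By percentile they overlapped at Tox and at Dusp5, which had 86.4 and 80.9 in KO against 90.8 and 82.4 in WT. At Ptprc both WT percentiles, 68.1 and 66.3, stood above the KO percentiles of 63.5 and 60.3. Lower ends were those of Trdc, with a fold of 6.23 and 4.28 in KO against 5.003 and 4.78 in WT, and a second region of Dusp5. The latter had 5.57 and 4.24 against 5.96 and 5.01. None of the gene-end shared regions of the genes named here met the rule.

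**Figure D5:**
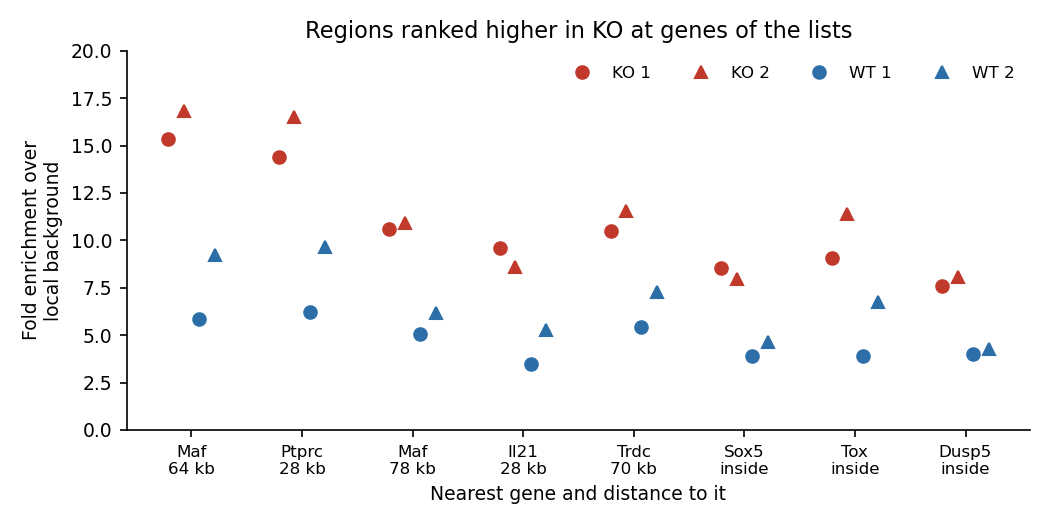
Fold enrichment over local background in each library of 8 regions ranked higher in KO whose nearest gene is in a list, labelled with that gene and the distance to it. Red symbols are KO and blue symbols WT, circles replicate 1 and triangles replicate 2; at all 8 both red symbols lie above both blue ones.

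Marker genes of cells that might accompany the sorted ones had too few shared regions for a count to say much beside the 1.08% of all shared regions. It was 0 of 89 shared regions at conventional αβ thymocyte genes, 0 of 42 at B cell genes, 0 of 50 at myeloid genes, 0 of 12 at erythroid genes and 0 of 73 at genes of thymic epithelium and stroma. Housekeeping genes had 0 of 70. At erythroid genes both KO percentiles stood above both WT percentiles in 5 of the 12 shared regions (41.7%), against 18.6% of all. The reverse held in 1. The median gap there was −1.54 points, and −13.6 with the genotypes exchanged. The myeloid list had 10 of 50 in KO order and 7 in WT order. The B cell list had 5 and 2 of 42, thymic epithelium and stroma 13 and 9 of 73, and αβ thymocyte genes 11 and 22 of 89. T cell identity genes had 2 of 228 (0.877%), the regions of Ptprc and Trdc. Their median gap was −12.4 points, and −5.09 with the genotypes exchanged. They had 18 in KO order (7.89%) and 51 in WT order (22.4%), against 18.6% and 18.1% of all shared regions. Gene ends with a peak numbered 7 and 6 of 14 for the myeloid list in KO 1 and KO 2, against 5 and 7 in WT 1 and WT 2. For the erythroid list they numbered 5 and 4 of 12 in KO, against 3 and 4 in WT, and for the B cell list 6 of 12 in both KO libraries, against 5 and 6 in WT. For thymic epithelium and stroma they numbered 7 and 8 of 16 in KO, against 7 and 9 in WT, and for αβ thymocyte genes 11 of 15 in each library.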

How the data were processed

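Omni-ATAC-seq peak lists of 4 libraries (2 KO, 2 WT) were used, 1 list per library, on GRCm38/mm10. Tools named in the submitters' processing notes are MACS2 2.1.1, Bowtie2 2.3.4.1, deepTools 3.1.2, bedtools, Picard, cutadapt and Trim Galore. Their roles, the treatment of duplicates, any Tn5 shift and the peak settings were not given in the sources used here. Per the deposited lists, each peak carries a whole-number score, a fold enrichment over local background (a ratio), −log10 p and −log10 q values, and a summit offset. These are the authors' own values, computed within a library, and served to rank, describe or filter the peaks of that library alone.

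Regions were merged, ranked and counted with Python 3.11.15, pandas 2.3.3 and SciPy 1.17.1; ties shared their mean rank. The code for merging and ranking was checked on simulated peaks with planted differences and little noise. That check does not measure how the rule performs on these data. The background pileup was derived from the step in fold that 1 read makes. Genes came from a RefSeq table of GRCm38.p6 without strand or exons: a region belonged to the nearest protein-coding gene or constant segment within 100 kb. Exons and introns could not be told apart. All 236 symbols of the lists but 2, older names of genes also listed, matched. Intervals are exact Clopper-Pearson intervals at 95%. Regions and lists were chosen with earlier results of these data known, and no result comes from a test.

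Named regions were the 12 with the largest gap, the 10 with the largest gap at a lower KO percentile of at least 75, those at listed genes (1 is not reported here), those of the 5 genes with most regions, and the 2 on either side of the threshold; those chosen after seeing values are marked. Alternatives changed the ranked value, the minimum gap, ties, the peaks used, the overlap, the summits, the chromosomes, the genes and the libraries.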

Additional observations from a re-analysis of the deposited data

Results flagged for a closer look

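Peaks on chromosome Y, which the comparisons did not use, numbered 134 and 95 in KO 1 and KO 2, against 82 and 93 in WT 1 and WT 2. They were singled out because the lowest KO library, with 95, lies above both WT libraries. These are raw counts from lists of unlike length. With all chromosomes and contigs the lists held 131397 and 120453 peaks in KO 1 and KO 2, against 103131 and 132566 in WT 1 and WT 2. As a share of the list the order of the counts does not hold, since KO 2 then lies slightly below WT 1. The sex of the pooled fetuses is not given in the labels, and the difference was not tested.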

How the results depend on the processing

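No paired analysis was possible because no result comes from a test. No gap of a named region changed sign where it could be measured: of 536 values, 430 moved by no more than the spread between replicates and 106 by more. Nearly all named regions met the rule, which favours an unchanged sign. Regions no longer shared under an alternative gave no value. Of the 44 named regions that met the rule, 17 were measured with −log10 q of at least 5. With at least 0.5 of the region covered, 20 were. With a minimum gap of 10 points the rule took 3404 regions (3300 in favour of WT), of which 7.43% were at gene ends. With 30 points it took 150 (370), of which 48.0% lay inside genes. When each library had to cover at least 0.5 of a region, the rule took 493 (577), and 408 of the 849 regions (48.1%) were found again. With 1 library left out, fewer lists had to meet the rule, and the count ran from 2396 to 4336 (2222 to 3773), lowest without KO 1 and highest without WT 2. The median width was then 213 to 224 bp and the gene-end share 6.18% to 7.78%. Keeping only peaks with −log10 q of 5 or more gave a median width of 260 bp, and 373 (43.9%) were found again; with −log10 q ranked in place of the fold, 668 (78.7%) were. The gene-end share was 3.42% within 500 bp and 8.01% within 2 kb. With genes of every biotype it was 7.77%, and 60.5% lay inside genes. Small peaks limit the ranks, since 1 read shifts a low percentile by several points.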
